A study of Sus scrofa with 21 samples.

Results

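The genes examined encode RNA-binding proteins and a poly(A) polymerase that store, silence or activate messages in germ cells. They were listed by 8 symbols, DAZL, BOLL, YBX2, CPEB1, CPEB2, PUM2, TPAP and PAPOLB, and members were the rows of the count files whose Ensembl pig identifier carries one of these symbols. TPAP is another name of PAPOLB, so that the symbols stand for 7 genes. A row was found for 5 of the 7, out of 25880 genes counted. DAZL and PAPOLB had no row matched by symbol and were not analysed here. Testis tissue, collected at slaughter from boars of an artificial insemination station, was sequenced with 1 library per boar from 13 Landrace and 8 Duroc boars, in 21 libraries. Contrast (i) compared 4 Landrace boars with high and 4 with low sperm hyperactivity, the forceful, irregular beating that sperm need near the egg, on the day of ejaculate collection (day 0). Contrast (iii) compared 3 Landrace boars whose hyperactivity changed much during 96 h of semen storage with 4 in which it changed little, and boars L2 (low in both) and L7 (high in both) belong to both contrasts. Of the Duroc boars, 5 are labelled High and 3 are labelled Low at day 0. The study's own list of boars gives other groups to most of the Duroc names, and the Duroc groups used here are those of the deposited labels. By depth, the list and the labels point the same way, since the 2 deepest Duroc boars of that list are in its high group and the 2 deepest deposited libraries, D3 (125576407 counts) and D2 (84446404 counts), are labelled High. No treatment or allele is given for any group, age is given for the boars of the study together and not by group, and the whole tissue was sequenced, not isolated cells.

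Late male germ cells rely on stored messages. Transcription stops when the spermatid nucleus is compacted, so that the protamines and many flagellar and acrosomal proteins are made from RNA that was transcribed earlier and kept in ribonucleoprotein particles. Proteins of the DAZ family (DAZL and BOLL) bind the 3' end of messages and promote their translation, YBX2 packages and stabilises messages in spermatocytes and spermatids, CPEB proteins bind the cytoplasmic polyadenylation element and either repress a message or lengthen its poly(A) tail, Pumilio proteins such as PUM2 recruit the deadenylation machinery, and PAPOLB is a testis poly(A) polymerase that acts in the cytoplasm of spermatids. The amount of such a protein and its activity are set in part after transcription, and RNA-seq measures only the level of its message.

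All 5 members with a row were well expressed and passed the filter on low counts in every comparison. Levels are given as CPM (read counts scaled to library size), normalised with TMM factors (trimmed mean of M-values) and not divided by transcript length, so that levels are compared between boars and never between genes. Values over all boars were scaled over the 21 libraries, and values within a contrast over the libraries of that contrast, which moves the CPM of a boar by a few percent. Libraries held 41358671 to 125576407 counts on genes, and the lowest raw count of a member in any library was 1147, for CPEB1, where counting error alone amounts to a coefficient of variation (CV) of 2.95%.

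The boule homologue BOLL (ENSSSCG00000016082, chromosome 15, 101535392 to 101602232, Sscrofa11.1), a DAZ family protein that meiotic germ cells need, averaged 122 ± 12.9 CPM (SD, n = 13) in Landrace and 123 ± 17.6 CPM (SD, n = 8) in Duroc. Boar D1 had the lowest level, 92.5 CPM, and L8 the highest, 157 CPM. The Y-box protein gene YBX2 (ENSSSCG00000017938, chromosome 12, 52635383 to 52642443), also known as MSY2, averaged 333 ± 35.4 CPM in Landrace and 331 ± 46.8 CPM in Duroc. Its lowest level was 267 CPM in L13 and its highest 411 CPM in D4. Over the 21 boars both were among the steadier genes of the tissue, with a CV of 11.8% for BOLL and 11.7% for YBX2. Only 4.72% and 4.83%, respectively, of the 13126 genes tested across all libraries had a smaller SD of log2 CPM. These shares were 3.28% and 4.71% within Landrace, and 19.9% and 16.1% within Duroc. For CPEB1 they were 24.9% within Landrace and 1.45% within Duroc. No comparison with genes of similar level was made.

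CPEB1 (ENSSSCG00000001808, chromosome 7, 52329054 to 52382408), the founding member of its family and best known from oocytes, averaged 25.3 ± 4.46 CPM in Landrace and 25.6 ± 1.97 CPM in Duroc. Its range was 19.5 CPM in L4 to 35.2 CPM in L13. CPEB2 (ENSSSCG00000038410, chromosome 8, 10401350 to 10472141), a paralogue of CPEB1 that binds messages in haploid germ cells, averaged 462 ± 84 CPM in Landrace and 447 ± 78.6 CPM in Duroc. It varied more than BOLL and YBX2, from 359 CPM in D1 to 698 CPM in L8, with a CV of 17.6% over all boars. PUM2 (ENSSSCG00000008600, chromosome 3, 117857930 to 117965564) averaged 182 ± 41.3 CPM in Landrace and 215 ± 31.6 CPM in Duroc. It had the widest spread of the 5, with a CV of 20.9% and a 2.07-fold range from 139 CPM in L3 to 289 CPM in L8, and 36.3% of all genes tested had a smaller SD. Boar L8 thus had the highest level of BOLL, CPEB2 and PUM2, and its library was also the deepest of the Landrace libraries, with 97059970 counts, while boar L13 combined the highest CPEB1 with the lowest YBX2.

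**Figure D1:**
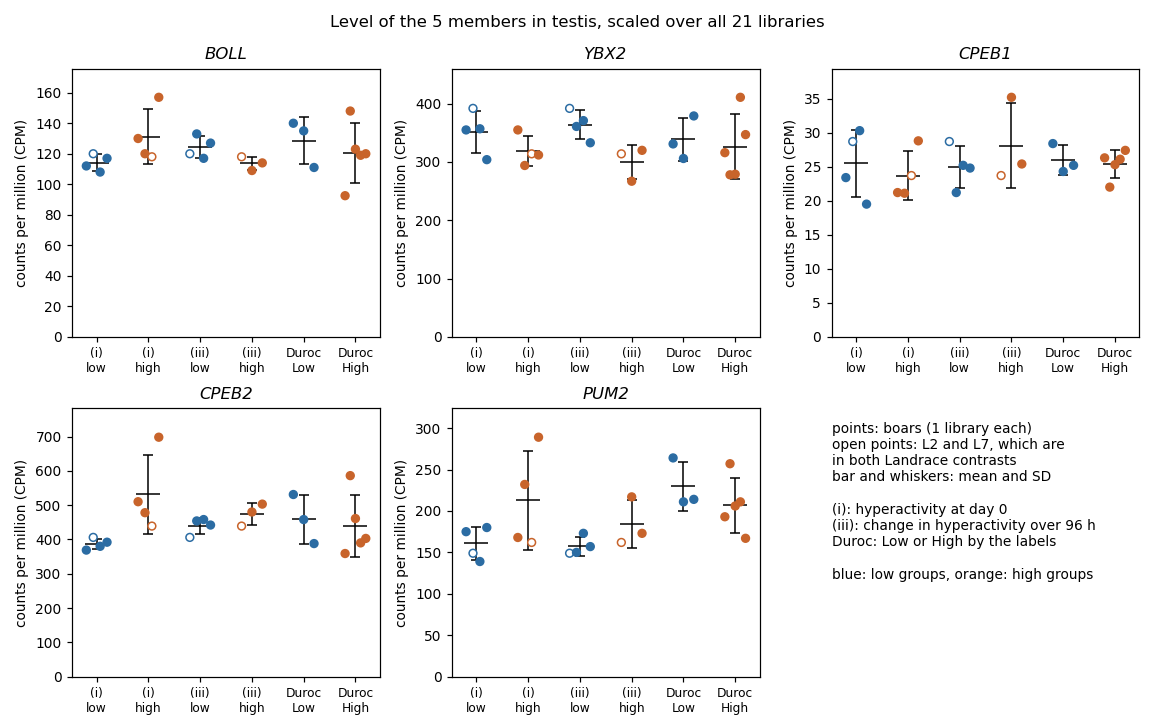
Level of BOLL, YBX2, CPEB1, CPEB2 and PUM2 in each boar (vertical axis, CPM scaled over 21 libraries) by hyperactivity group (horizontal axis), with the mean and SD of each group. Most groups overlap, and the 4 boars with high day 0 hyperactivity lie above the 4 low boars for CPEB2 alone.

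High and low hyperactivity at day 0 were compared in contrast (i). One of the 5 members was called at an adjusted p under 0.05, and CPEB2 was this gene, higher in the high group. Of all 12979 genes tested, 20.7% were called and 4.82% were called as higher in the high group, so that the count of members called is near that of genes in general. CPEB2 was measured at 364 CPM in L1, 405 CPM in L2, 367 CPM in L3 and 389 CPM in L4, the low boars. The high boars had 519 CPM (L5), 464 CPM (L6), 447 CPM (L7) and 674 CPM (L8). The groups did not overlap, the low boars lay close together, and L8 stood highest. Their means were 526 ± 104 CPM (SD, n = 4) and 381 ± 19.5 CPM (SD, n = 4), a log2 fold change of 0.46 with a standard error of 0.15 and a 95% interval of 0.15 to 0.78 (edgeR quasi-likelihood test, adjusted p = 0.0436). The two-sided exact permutation test over boars gave p = 0.0286, the smallest that 4 against 4 boars allow, and 0.286 after adjustment over the 20 member tests. Without L8 the log2 fold change was 0.33, and the adjusted p of edgeR's quasi-likelihood test was 0.0707. The call was also lost when L1, L2, L3, L4 or L6 was left out, with adjusted p up to 0.133 by the same test.

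PUM2, the Pumilio repressor, gave a value of nearly the same size, but it did not pass the test. The low boars had 172 CPM (L1), 148 CPM (L2), 135 CPM (L3) and 178 CPM (L4), and the high boars 171 CPM (L5), 225 CPM (L6), 165 CPM (L7) and 279 CPM (L8). L6 and L8 lay above all low boars, while L5 and L7 lay among them. The log2 fold change was 0.41 with a standard error of 0.18 (edgeR quasi-likelihood test, adjusted p = 0.103), and 0.25 without L8.

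BOLL was measured at 110 CPM in L1, 119 CPM in L2, 105 CPM in L3 and 116 CPM in L4, against 132 CPM in L5, 116 CPM in L6, 120 CPM in L7 and 151 CPM in L8. The groups met at L2 and L6, and the log2 fold change of 0.21 (standard error 0.12) did not pass edgeR's quasi-likelihood test, with an adjusted p of 0.214, and was 0.13 without L8. YBX2 ranged from 285 to 362 CPM in the high boars and from 302 to 392 CPM in the low boars, with a log2 fold change of -0.13 (95% interval -0.41 to 0.15). CPEB1 had 20.5 to 27.8 CPM in the high and 19.3 to 29.3 CPM in the low group, with a log2 fold change of -0.09 (95% interval -0.48 to 0.29). Complete separation of the groups was seen for 1 of the 5 members, against 29.1% of all genes tested.

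Markers of meiotic cells moved with the same boars. The summed level of 10 markers of pachytene spermatocytes, all matched and none near 0, was 1937 to 2739 CPM in boars L5 to L8 of contrast (i) and 1483 to 1878 CPM in boars L1 to L4. These ranges did not overlap, and an exact permutation test (two-sided) gave p = 0.0286, again the smallest it can give. Here and below, p values of marker sums are not adjusted for the number of lists and comparisons tested. Among single genes, 29.1% of all those tested had separate groups in this contrast. All 9 of these markers that were tested had log2 fold changes above 0, with a median of 0.41 against 0.03 over all genes, and none was called. L8 had the highest sum of the 13 Landrace boars, 2835 CPM when scaled over all libraries. The sums of the 9 matched round spermatid markers overlapped between the groups, at 1370 to 1863 CPM against 1321 to 1623 CPM. So did those of the 9 matched elongating spermatid markers, at 8204 to 11440 CPM against 7723 to 11415 CPM. Even so, 3 and 5 of their genes, respectively, were called lower. The median log2 fold changes were -0.41 and -0.7, with 3 and 1 genes above 0. Of the somatic lists, only those of peritubular cells and erythrocytes held called genes. None was called of the 8 Sertoli, 6 Leydig, 4 endothelial and 2 macrophage markers tested, and the sums of these lists overlapped. The 5 peritubular cell markers, none near 0, summed to 16.6 to 62.5 CPM in the high and 48.6 to 107 CPM in the low boars, with L8 lowest, and 2 of the 4 tested, DES and MYH11, were called lower (median log2 fold change -1.08). The haemoglobin gene HBB, the 1 erythrocyte marker tested, was called lower too (-2.53). Its level was low, with means of 1.2 CPM in the high and 6.82 CPM (SD 7.48) in the low boars. The ranges overlapped, at 0.532 to 2.83 CPM and 1.56 to 17.9 CPM. Scaled over all libraries, the erythrocyte sum was 19.8 CPM in L2 and 1.61 to 5.2 CPM in L1, L3 and L4. The part of these cell types in the values of CPEB2, PUM2 and BOLL was not tested. In whole tissue, fewer cells of a type and less RNA per cell cannot be told apart.

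The change of hyperactivity over 96 h was compared in contrast (iii). None of the 5 members was called, and none of the 12824 genes tested was either (0% called by edgeR's quasi-likelihood test), although 2540 genes had an unadjusted p under 0.05. Here the member with the largest difference was YBX2, which was lower in the high-change boars. It had 323 CPM in L7, 268 CPM in L13 and 327 CPM in L15, the boars with a high change, and 397 CPM in L2, 374 CPM in L9, 386 CPM in L10 and 329 CPM in L12. The groups lay apart, by a narrow margin between L15 and L12. The log2 fold change was -0.28 with a standard error of 0.13 and did not pass the test (edgeR quasi-likelihood test, adjusted p = 0.255). Without L13 it was -0.18. The exact permutation test over the 35 assignments of boars gave p = 0.0571, and 0.286 after adjustment over the 20 member tests. Separation was seen for this 1 member of 5, and for 16.3% of all genes tested. Beside it, the summed level of the 9 matched elongating spermatid markers, none near 0, was 4754 to 9428 CPM in the high and 8790 to 11577 CPM in the low group (two-sided exact permutation test, p = 0.0857), with a median log2 fold change of -0.81 over its genes and no gene called. The part of these cells in the level of YBX2 was not tested.

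CPEB1 had 24.4 CPM in L7, 35.4 CPM in L13 and 26 CPM in L15, against 29 CPM in L2, 22 CPM in L9, 26.2 CPM in L10 and 24.6 CPM in L12. L13 alone stood above the low group. The log2 fold change of 0.17 (95% interval -0.24 to 0.58) fell to -0.01 without L13. This boar also had the highest sum of the 9 matched Sertoli cell markers in this contrast, 512 CPM against at most 245 CPM in the low group. Of these markers, AMH was near 0, with a median under 0.1 CPM over the libraries. CPEB2 had 452 to 515 CPM with a high and 410 to 477 CPM with a low change (log2 fold change 0.11, 95% interval -0.15 to 0.36). PUM2 had 167 to 219 CPM against 150 to 180 CPM, a log2 fold change of 0.23 (95% interval -0.07 to 0.53), or 0.11 without L13. BOLL had 109 to 121 CPM against 121 to 138 CPM, a log2 fold change of -0.13 (95% interval -0.39 to 0.13). None of these passed the test.

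In Duroc, where High and Low are those of the labels, no member was called and no gene of 13043 either (0%), although 158 genes had an unadjusted p under 0.05. DESeq2 called none as well. CPEB2 had 360 CPM in D1, 585 CPM in D2, 461 CPM in D3, 390 CPM in D4 and 403 CPM in D5, labelled High, and 530 CPM in D6, 458 CPM in D7 and 389 CPM in D9, labelled Low. The groups overlapped nearly entirely, and the log2 fold change was -0.06 with a 95% interval of -0.48 to 0.36. PUM2 had 167 to 256 CPM against 210 to 263 CPM, a log2 fold change of -0.15 (95% interval -0.52 to 0.22). BOLL (-0.09), YBX2 (-0.05) and CPEB1 (-0.03) had log2 fold changes closer to 0, and their groups overlapped as well. These values hold for the grouping of the labels and were not computed for another.

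**Figure D2:**
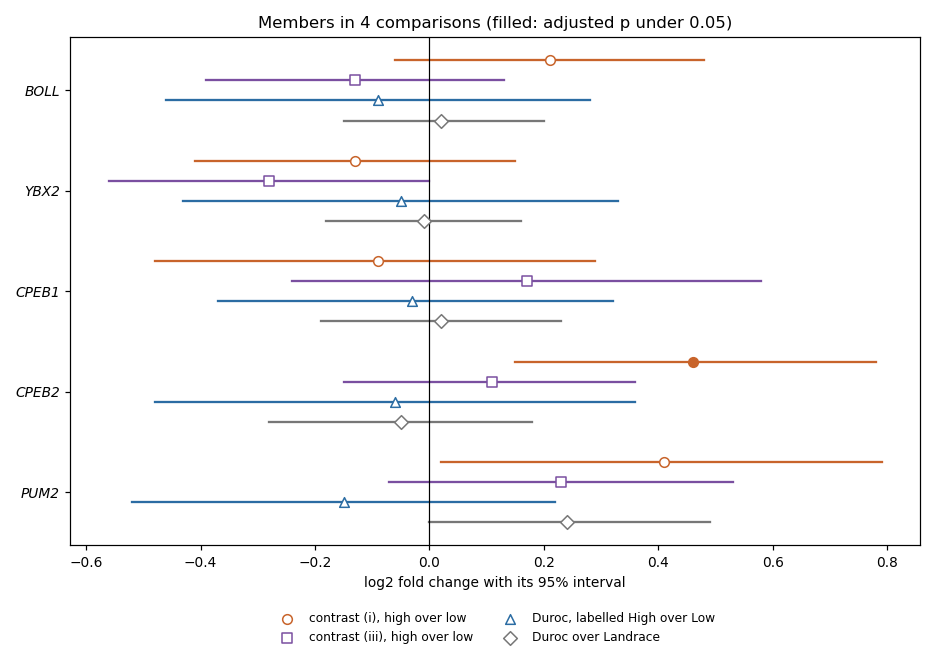
Log2 fold change (horizontal axis) of each member (vertical axis) with its 95% interval in contrasts (i) and (iii), between the Duroc labels and between the breeds. The value of CPEB2 in contrast (i), 0.46, is the only filled point, with an adjusted p under 0.05.

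The difference between the day 0 effects of the breeds was tested itself, as an interaction of breed and level. For CPEB2 the Duroc effect was lower than the Landrace effect by a log2 difference of -0.56 (95% interval -1.05 to -0.08), and for PUM2 by -0.59 (95% interval -1.1 to -0.08). Neither passed edgeR's quasi-likelihood test over 12920 genes, with an adjusted p of 0.329 for both, and no gene at all was called (0%, with 1946 genes at an unadjusted p under 0.05 and 6 called by DESeq2). The differences were -0.33 for BOLL, 0.05 for YBX2 and 0.04 for CPEB1. Without L8 the differences were -0.36 for CPEB2, -0.37 for PUM2 and -0.19 for BOLL, and without D1 that of BOLL was -0.19 as well.

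Between the breeds, no member was called, against 2.88% of the 13126 genes tested. PUM2 came nearest. It was higher than the Landrace median of 173 CPM in 7 of 8 Duroc boars, while L8, L6 and L13 reached 289, 232 and 217 CPM in Landrace. Its log2 fold change of Duroc over Landrace was 0.24 with a standard error of 0.12 (edgeR quasi-likelihood test, adjusted p = 0.41). An exact permutation test over boars gave p = 0.0435, and 0.286 after adjustment over the 20 member tests. The summed level of the 8 matched spermatogonial markers, of which NANOS3 was near 0, was 81.7 to 109 CPM in Duroc and 87.5 to 157 CPM in Landrace (two-sided exact permutation test, p = 0.0159). This sum moved mainly through KIT, a receptor of differentiating spermatogonia, at 15.7 CPM in Duroc and 41.4 CPM in Landrace, which was the 1 called of the 6 markers tested, while the median log2 fold change of the list was 0.02. In the other marker lists, GATA4 of the Sertoli cell list (log2 fold change 0.74) and CATSPER3 of the round spermatid list (-0.6) were called as well. Whether KIT follows the number of spermatogonia alike in both breeds was not tested. The part of these markers in the level of PUM2 was not tested either. For the other members the breeds were close, with log2 fold changes and 95% intervals of 0.02 (-0.15 to 0.2) for BOLL, -0.01 (-0.18 to 0.16) for YBX2, 0.02 (-0.19 to 0.23) for CPEB1 and -0.05 (-0.28 to 0.18) for CPEB2.

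Across the Duroc boars, the levels of BOLL and CPEB2 went together. Pearson's r of their log2 CPM was 0.91 (two-sided exact permutation test, p = 0.00134, adjusted 0.0268 over 20 relations) and Spearman's rho was 0.98 (exact permutation p = 0.000397, adjusted 0.00794). The relation remained without D1 and D2, the boars farthest from the median of BOLL, with r = 0.9. In the 13 Landrace boars r was 0.76 (permutation test, p = 0.00849, adjusted 0.0566) and rho 0.48 (permutation p = 0.0973, adjusted 0.441). There r was 0.4 without L8 and L9, the boars farthest from the median of BOLL. L8 had the highest level of both genes, while L9 had 454 CPM of CPEB2, the Landrace median. The relation was not computed with only L8 or only L9 left out. Total counts were also related to both genes in Duroc, with r = 0.52 for BOLL and 0.58 for CPEB2, and less so in Landrace, with r = 0.18 and 0.4. In Duroc, the pachytene spermatocyte sum was 1988 to 2676 CPM in D2, D3, D6 and D7, the boars with most BOLL and CPEB2. It was 1592 to 1729 CPM in D1, D4, D5 and D9. The part of depth or of these cells in the relation was not tested.

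PUM2 followed CPEB2 less closely than BOLL did in Duroc, and about as closely as BOLL in Landrace. Pearson's r was 0.74 in Landrace (permutation test, p = 0.00716, adjusted 0.0566) and 0.77 in Duroc (exact permutation test, p = 0.0275, adjusted 0.11), and rho was 0.47 (permutation p = 0.11, adjusted 0.441) and 0.5 (exact permutation p = 0.216, adjusted 0.475). Without the pair of boars farthest from the median of CPEB2, r was 0.51 in Landrace (without L8 and L1) and 0.23 in Duroc (without D2 and D6). YBX2 and PUM2 went in opposite directions in Landrace, with r = -0.65 (permutation test, p = 0.0152, adjusted 0.0761) and rho = -0.75 (permutation p = 0.00432, adjusted 0.0432), and r = -0.59 without L13 and L2. With total counts, YBX2 had r = -0.36 and PUM2 r = 0.46 in these boars, and the part of depth was not tested. In Duroc the same pair gave r = -0.25 (exact permutation test, p = 0.556, adjusted 0.686) and rho = -0.02 (exact permutation p = 0.977, adjusted 0.977), so that the relation was not seen there. The other 7 pairs of members had no adjusted p under 0.05 in either breed by r or rho.

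**Figure D3:**
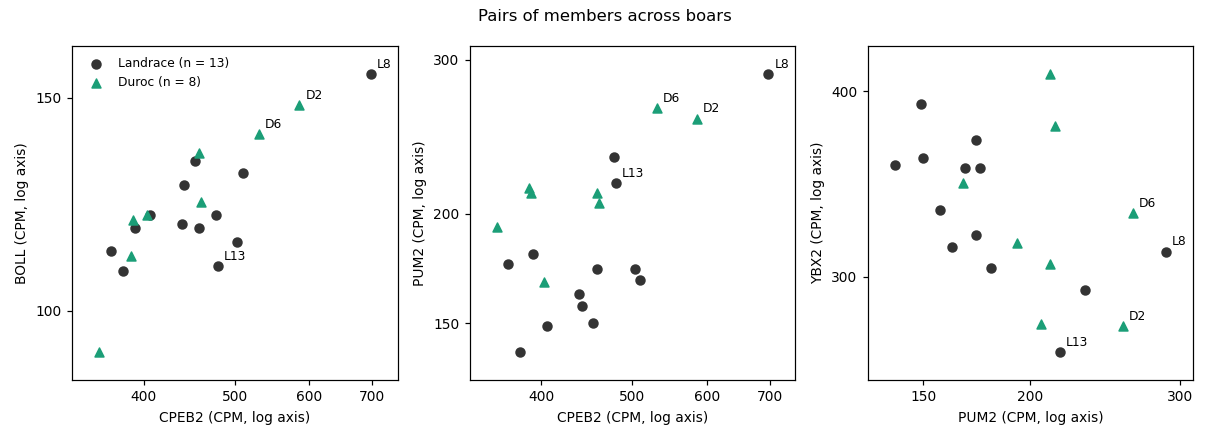
Levels of CPEB2 against BOLL, CPEB2 against PUM2 and PUM2 against YBX2 in each boar (both axes in CPM on log scales), with 13 Landrace boars as circles and 8 Duroc boars as triangles. L8, D2 and D6 lie at the upper end for CPEB2 and PUM2, and the Duroc boars follow a line for CPEB2 and BOLL (r = 0.91).

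For each member, the 3 genes with the most similar profile were those with the highest Pearson's r of log2 CPM over the 13 Landrace libraries, among 13126 genes, with r over the 8 Duroc libraries as the boars not used in the choice. CPEB2 was most like ARIH1, a ubiquitin ligase (r = 0.97 in Landrace and 0.95 in Duroc), DDX5, an RNA helicase (0.96 and 0.89), and HIPK3, a protein kinase (0.96 and 0.95). BOLL was most like PPP1R42 (0.94 and 0.81), the kinase gene MAPK6 (0.94 and 0.9) and the kinase gene BRAF (0.93 and 0.87). PUM2 was most like DMTF1, a transcription factor (0.96 and 0.77), and 2 genes without a symbol, ENSSSCG00000016932 (0.96 and 0.26) and ENSSSCG00000035104 (0.95 and 0.64). The neighbours of CPEB2 and BOLL had an r of at least 0.81 in the other breed, and those of PUM2 ran from 0.26 to 0.77 there. YBX2 was most like PAF1 (0.91 and 0.43), SIK3 (0.91 and 0.75) and GLIS3 (0.9 and 0.11). CPEB1 was most like ENSSSCG00000007188 (0.92 and -0.09), SSH1 (0.91 and 0.24) and PRKD1 (0.89 and 0.25). All these genes share the libraries, their depth and their scaling with the member.

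The closest relatives of the members were also described. None of 8 paralogues was called in any comparison. In contrast (i) their median log2 fold change was 0.2, against 0.03 over all genes, and 6 of 8 were above 0. Chosen after their values were seen, PAPOLA, the general poly(A) polymerase, had 474 to 714 CPM in the high and 347 to 447 CPM in the low group (log2 fold change 0.43; edgeR quasi-likelihood test, adjusted p = 0.0649). PAPOLG, its paralogue, had 26.7 to 33.8 CPM against 22.8 to 25.8 CPM, and PUM3 had 36 to 47.8 CPM against 24.4 to 33.6 CPM. For these 3 of 8 genes the groups lay apart without a call, beside the 29.1% of all genes with separate groups. The values of the CPEB family differed among its members, with log2 fold changes of 0.26 for CPEB4 (standard error 0.13), 0.14 for CPEB3 (standard error 0.14), 0.46 for CPEB2 and -0.09 for CPEB1, and only that of CPEB2 passed the test. YBX1, a Y-box protein made in many tissues, was at -0.32 (adjusted p = 0.111 by edgeR's quasi-likelihood test), and YBX3 at 0.01.

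The machinery that these proteins act through was described from lists of genes. For cytoplasmic polyadenylation, 5 of 10 genes tested in contrast (i) had log2 fold changes above 0, with a median of -0.01. Of the 10, 3 were called lower in boars with high hyperactivity and none was called higher, beside 2056 called lower of all 12979 genes. CPSF1, the large subunit of the cleavage and polyadenylation specificity factor, fell from 19.2 to 6.26 CPM (log2 fold change -1.62), and SYMPK, the scaffold protein symplekin, from 108 to 69.1 CPM (-0.65). The third, QRICH2 (-0.66), is known as a protein of the sperm flagellum and not as a polyadenylation factor. For deadenylation, 14 of 18 genes had log2 fold changes above 0, with a median of 0.2. Of the 18, 1 was called higher, CNOT2 (0.46), and 1 was called lower, CNOT3 (-0.74), both subunits of the CCR4-NOT complex. For cap binding and repression, 9 of 14 genes were above 0, with a median of 0.19. Of the 14, 1 was called higher, the RNA helicase and repressor DDX6 (0.47), and 1 was called lower, GIGYF1 (-0.74). None of 6 poly(A)-binding proteins was called, and their median log2 fold change was 0.37.

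Among 42 other RNA-binding proteins of germ cells, 29 had log2 fold changes above 0 in contrast (i), with a median of 0.21. Of the 42, 2 were called higher, RBM46, which germ cells need for meiosis (log2 fold change 0.52), and QKI (0.47). A further 6 were called lower, led by SAMD4B, a homologue of the fly repressor Smaug (-0.86), the m6A reader YTHDF1 (-0.8) and MSI1, a Musashi protein (-0.64). Of 20 messages known as targets of such proteins or as stored messages, 10 had log2 fold changes above 0, with a median of 0.01. Of the 20, 1 was called higher, the germ cell helicase DDX4 (0.52), and 5 were called lower. The lowest were PRM3, which fell from 94.9 to 33.2 CPM (-1.52), ACR, the acrosomal protease acrosin, which fell from 210 to 101 CPM (-1.05), and the transition protein gene TNP2, which fell from 210 to 127 CPM (-0.73). PRM3 and TNP2 are also in the list of elongating spermatid markers. Over these 6 lists of machinery, partners and messages the share called ran from 0% to 30%, on either side of the 20.7% of all genes. Over all genes 1 was called without L3 and 1 without L6, so that at most 1 of these calls remained in either case. In contrast (iii), between the Duroc labels, between the breeds and in the difference between breeds, edgeR's quasi-likelihood test called no gene of these lists.

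**Figure D4:**
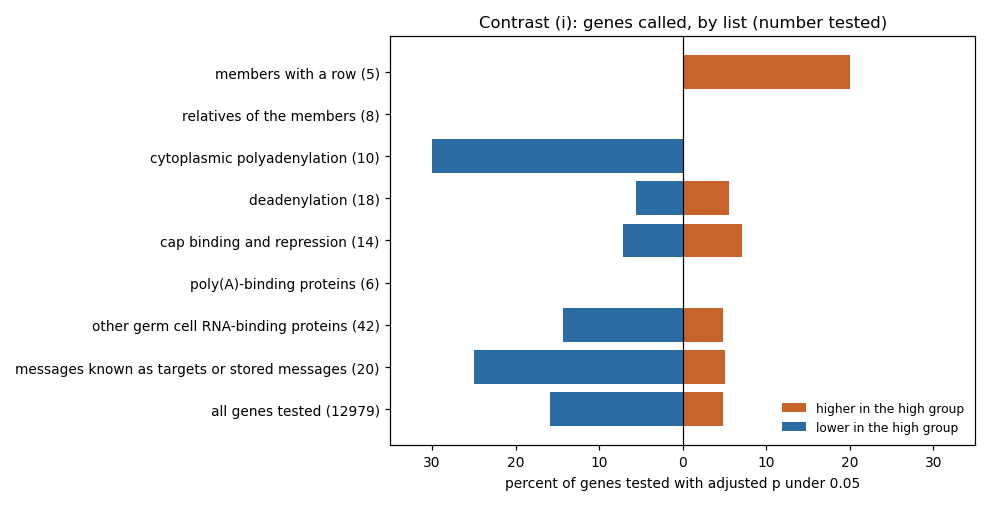
Percent of the genes tested in each list (vertical axis, with the number tested) that were called higher (right) or lower (left) in the high group of contrast (i), beside the 12979 genes tested in all. The members have 1 of 5 genes called higher, and 3 of 10 genes of the polyadenylation list were called lower.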

How the data were processed

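The deposited values are raw read counts per Ensembl gene, 1 file per boar. Per the study's methods, the authors trimmed reads with Trimmomatic 0.36, aligned them with STAR 2.5.2a and counted them by strand with HTSeq on Ensembl 11.1.90. Rows that name no gene were left out and held 29.42% to 38.99% of a library's total. Multi-mapped reads are not among the counts of a gene.

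The tests were run with edgeR 4.0.16 (R 4.3.3): genes with at least 1 CPM in 4 libraries (8 for breed and the difference), TMM, the quasi-likelihood test on the boars of 1 comparison, and Benjamini-Hochberg adjustment over all genes tested. Group differences in log2 CPM (prior count 2) of single genes and marker sums were tested by exact permutation over boars. Correlations used exact permutation in Duroc and random permutation in Landrace. The steps were tested on simulated data. Libraries are separate boars, and none of 106 pairs within a breed were duplicates. The members and lists were chosen with earlier results of these data known. Genes were named by a rule: the members, up to 3 called genes per list and direction, and the 3 nearest profiles per member. Some values of listed genes are not reported here. Coordinates are those of RefSeq for Sscrofa11.1. Alternatives were a likelihood ratio test, DESeq2 1.42.0, other scaling, other filters, a robust fit, and leaving out boars.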

Additional observations from a re-analysis of the deposited data

How the results depend on the processing

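The count of members called in contrast (i) was 1, and it was 0 with a filter of at least 5 CPM, 0 without L2 and L7, and 0 to 1 when 1 boar was left out. It remained 1 without L5 or L7 and under the likelihood ratio test, DESeq2, relative log expression scaling, no CPM filter and a robust fit. For CPEB2 the log2 fold change was 0.39 at 5 CPM (edgeR quasi-likelihood test, adjusted p = 0.0589), 0.51 (0.0747) without L2 and L7, 0.33 to 0.53 with 1 boar left out (adjusted p 0.0338 to 0.133), and 0.39 to 0.53 over the other settings (0.0179 to 0.0747). In the other comparisons no setting called a member. Of the members' log2 fold changes under alternatives, 437 kept their direction and side of the threshold, 8 (all of CPEB2 in contrast (i)) lost the call, and 25 changed sign, all values that no test called.

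Changes of sign with 1 boar left out occurred within these ranges of log2 values. In contrast (iii) CPEB1 ran from -0.01 to 0.27. Between the Duroc labels YBX2 ran from -0.15 to 0.04, CPEB1 from -0.08 to 0.04 and CPEB2 from -0.19 to 0.05. Between the breeds BOLL ran from -0.02 to 0.08, YBX2 from -0.06 to 0.03, CPEB1 from -0.01 to 0.06 and CPEB2 from -0.11 to 0.01. In the difference between breeds YBX2 ran from -0.05 to 0.18 and CPEB1 from -0.02 to 0.21. YBX2 between the breeds was also 0.00 at 5 CPM and 0.01 with the day 0 boars and level as a covariate, and in the difference YBX2 was -0.01 and CPEB1 -0.03 without a CPM filter.

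Over all genes, contrast (i) had 2682 calls, 76.7% of them lower in the high group, against 3922 calls with 62.8% lower in DESeq2. Leaving out 1 boar gave 1 to 3764 calls, with 1 call without L3 or without L6, and there were 1661 at 5 CPM and 1815 without L2 and L7. Contrast (iii) had 0 calls, 64 by the likelihood ratio test, 116 by DESeq2 and 1 without a CPM filter. The breeds had 378, 554 without a CPM filter, 562 by DESeq2, 250 at 5 CPM and 230 with the 16 day 0 boars, and the difference had 0, 3 by the likelihood ratio test and 6 by DESeq2. Where a call was lost by a change of setting, the cause was not tested. This holds for the smaller number of boars too, and contrast (i) had 3764 calls without L5 and 2766 without L7. An order of the members by level per length was not run, since no transcript length was used here. No paired analysis was possible because the replicate numbers only name boars within a group.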
